A study of Punica granatum with 14 samples.

Results

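The genes described here are the 150 whose transcripts were most clearly highest in the leaves of all 4 pomegranate seedlings treated with B9. They were chosen by measured values. For each gene, the lowest log2(CPM + 1) of the 4 B9 libraries minus the highest of the other 10 libraries gave a score, where CPM is the count scaled to a library total of 1000000. A score above 0 means that every B9 plant exceeded every other plant. Of the 27893 genes of the count table, 783 had such a score, and the 150 with the highest scores were taken as members. That the members are higher under B9 is therefore how they were found, and no test is given for it.

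Leaves of 14 wild-type (wt) seedlings of the cultivar 'Hongmanao' were sequenced. The seedlings were grown in tissue culture from stem tips on a medium with the auxin IBA, which CK received as well. Treatment lasted 90 days, and 90 days is also the age in the sample labels. The 7 conditions, with 2 plants each, were CK (distilled water), paclobutrazol (6 or 8 mg/L), B9 (6 or 8 mg/L) and mannitol (2.5 or 15 g/L). The 2 plants are biological replicates of 1 cultivar, so the spread given here is that between 2 plants per condition.

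B9, also called daminozide, is a growth retardant that acts on late steps of gibberellin synthesis, the hormone pathway that drives the elongation of stems. Paclobutrazol is a triazole that blocks an early oxidation in the same pathway, at ent-kaurene oxidase. Mannitol is a sugar alcohol used in culture media to lower the water potential, which slows growth through an osmotic stress. The design thus sets B9 against another inhibitor of gibberellin synthesis and against a retardant of a different kind.

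Libraries held between 15790717 and 28385703 counts, and 1 count was worth between 0.0352 and 0.0633 CPM. After edgeR's filter on low counts, 19478 genes were tested, with all 14 libraries in 1 fit. All 150 members passed this filter, and 149 passed it also without the B9 libraries. The 2 plants of 6 mg/L paclobutrazol stood apart. The correlation of log2(CPM + 1) across genes was 0.908 between them, compared with 0.972 to 0.984 within the other conditions. The median changes, the counts of calls and the 3 calls with the smallest adjusted p for paclobutrazol are therefore given with and without these libraries. Whether the material behaves as leaf was not checked against marker genes, since no table used here pairs the gene symbols with products. For the same reason the members are named by symbol and their functions are not given.

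The members took up 2.28% to 2.72% of all counts in the 4 B9 libraries. In the other 10 libraries their share was 0.57% to 1.29%, with 0.71% and 0.68% in the 2 CK plants. In bulk leaf RNA, more cells of a type and more transcript per cell cannot be told apart. The mean level of a member under B9 had a median of 40.0 CPM and ranged from 1.52 to 6222 CPM. It was under 10 CPM in 23 members, between 10 and 100 in 88, and above 100 in 39. The members were thus spread over the range from scarce to abundant transcripts.

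Compared to CK, the fitted log2 fold change of B9 (the mean of both doses) had a median of 1.24 over the members, which is 2.36-fold, and ranged from 0.55 upward. It was above 1 in 95 members and above 2 in 40. Against paclobutrazol the median was 1.04 and against mannitol it was 0.94, or 2.06-fold and 1.92-fold. Without the 2 plants of 6 mg/L paclobutrazol, the median against paclobutrazol was 1.04 as well. Over all 19478 tested genes these medians lay between 0.01 and 0.02. Since the rule used these contrasts, the values describe the choice of members and support nothing more. Most members exceeded the other plants by a modest margin. The score was above 1 in 7 members, between 0.5 and 1 in 24 and below 0.5 in 119, with a median of 0.35.

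**Figure D1:**
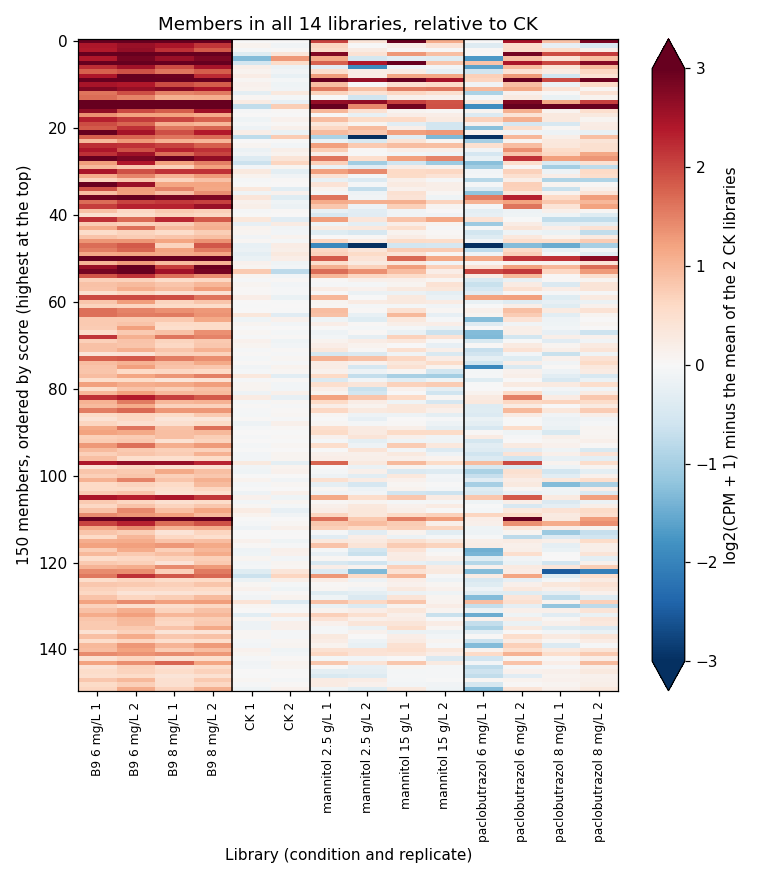
Heat map of the 150 members (rows, by score) in the 14 libraries (columns), coloured by log2(CPM + 1) minus the mean of the 2 CK libraries. The 4 B9 columns are red throughout, as the choice of members requires, while the other treated columns are mixed, with the most blue cells in replicate 1 of 6 mg/L paclobutrazol.

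The highest score, 2.97, belonged to LOC116202255. It had no count in CK and none in replicate 1 of 6 mg/L paclobutrazol. Its levels under B9 were 106 and 185 CPM at 6 mg/L and 62.6 and 64.3 CPM at 8 mg/L. The remaining treated plants were low but mostly not at 0. They had 4.51, 0.837 and 6.21 CPM under paclobutrazol, and 3.04, 0.306, 7.13 and 1.15 CPM under mannitol. With CK taken at a floor of 3 counts per library, LOC116202255 was at least 842-fold higher under B9. It was 31.8-fold higher than under paclobutrazol and 35.3-fold higher than under mannitol. LOC116192274 and LOC116195522 were also at or under 3 counts in each CK plant, and were at least 32.2-fold and 30.6-fold higher under B9. LOC116192274 is named after its values were seen.

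The next members by score were scarce transcripts. LOC116199288 had 5.87 to 8.25 CPM in the B9 plants and at most 1.42 CPM in any other plant, a 13.7-fold difference from CK. LOC116201180 had 3.07 to 6.14 CPM under B9 and at most 0.689 CPM elsewhere. Both were thus detected in every plant but below 2 CPM without B9. LOC116201180 overlaps another listed gene, and since the use of strand in the counting is not given, reads of the 2 genes could not be told apart.

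LOC116202057 and LOC116216065 showed how unevenly some members behaved outside B9. LOC116202057 had 23.3 to 44.3 CPM in the B9 plants. In CK it had 0.159 and 0.899 CPM, but 9.83 CPM in replicate 2 of 6 mg/L paclobutrazol and 9.09 CPM in replicate 1 of 2.5 g/L mannitol, whose partners had 0.489 and 1.01 CPM. For this gene, plants of the same condition therefore differed widely outside B9. LOC116216065 had 20.8 to 29.2 CPM under B9, while the 2 CK plants had 0.676 and 9.29 CPM, and this split between the CK plants makes its 5.51-fold difference from CK imprecise (standard error 1.17 on the log2 scale).

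Abundant transcripts were among the top scores as well. LOC116213732 had 638 to 1245 CPM under B9 and 25.2 and 55.4 CPM in CK, a 23.8-fold difference. The treated plants without B9 lay between, from 67.5 to 316 CPM, so for this gene the CK plants were the lowest of all. It overlaps another listed gene. LOC116190741 had 34.7 to 43.3 CPM under B9, with little spread among the B9 plants, and 6.93 to 17.0 CPM elsewhere. Its difference from CK was 3.88-fold.

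LOC116189090 was the most abundant member and the seventh by score. It had 5832 and 7209.6 CPM at 6 mg/L B9, and 4915 and 6933 CPM at 8 mg/L. CK had 1415 and 1116 CPM. Under paclobutrazol the range was wide, with 413 and 2422 CPM at 6 mg/L and 1663 and 2439 CPM at 8 mg/L, and under mannitol the 4 plants had 332 to 1177 CPM. The mean under B9, 6222 ± 1055 CPM (SD, n = 4), was 5.23-fold that of CK.

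The other abundant members had smaller scores. LOC116200037 had 2496 to 3926 CPM under B9 and 239 CPM in both CK plants, but 2035 CPM in replicate 2 of 6 mg/L paclobutrazol, while the other paclobutrazol plants had 275 to 575 CPM. LOC116192023 had 1642 to 1869 CPM under B9, 298 and 182 CPM in CK, and 691 and 1187 CPM at 6 mg/L paclobutrazol. In both genes it was a paclobutrazol plant that came closest to the B9 plants. LOC116188266 had 1211 to 1649.8 CPM under B9, 569 and 660.0 CPM in CK, and 744 to 986 CPM in all 8 plants given paclobutrazol or mannitol.

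LOC116210572, the fifth by abundance, had the opposite order outside B9. Its levels were 493 to 1136 CPM in the B9 plants and 265 and 362 CPM in CK. All 8 plants of the other 2 chemicals were below CK, with 13.8 to 155 CPM under paclobutrazol and 34.9 to 219 CPM under mannitol. B9 thus gave 3.14-fold the level of CK but 8.95-fold that of paclobutrazol and 8.02-fold that of mannitol.

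**Figure D2:**
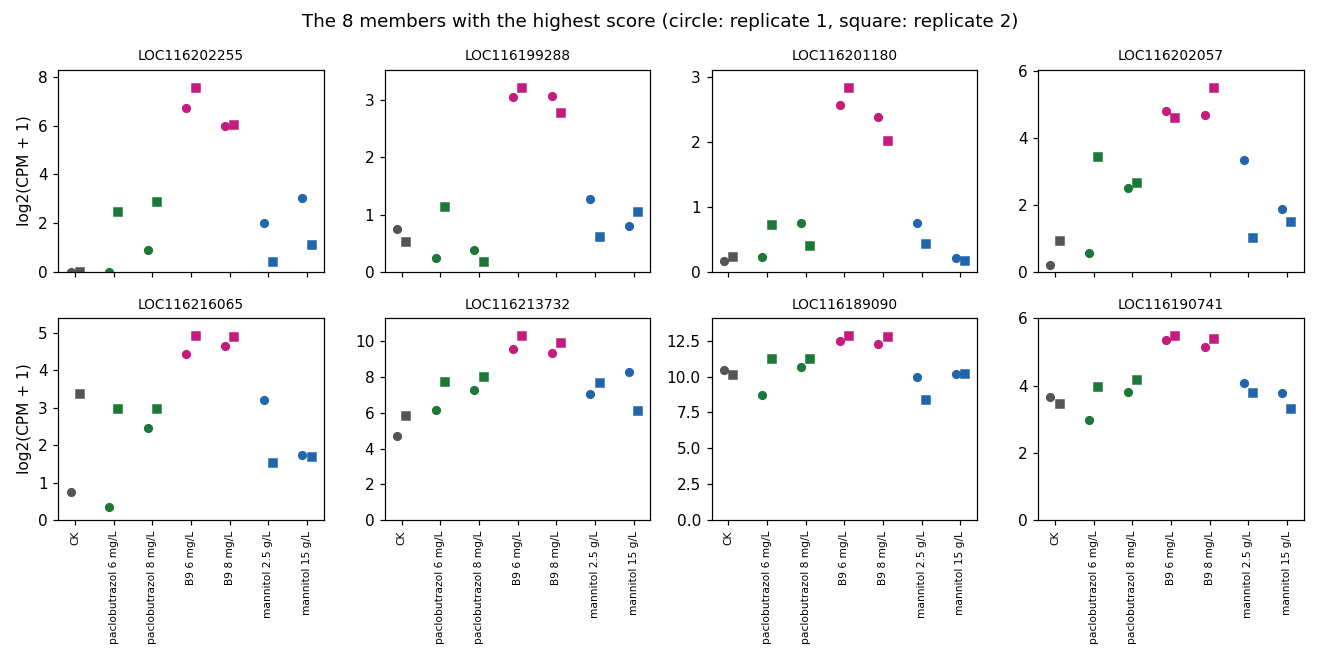
The 8 members with the highest score, as log2(CPM + 1) per plant (y axis, from 0) in the 7 conditions (x axis), with circles for replicate 1 and squares for replicate 2. The B9 plants (pink) are the highest 4 points in each panel by construction, and LOC116216065 shows the wide split of its CK plants at 0.676 and 9.29 CPM.

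At the edge of the choice, the last members were LOC116209835 with a score of 0.2417 and LOC116203506 with 0.2412. LOC116209835 had 54.1 to 63.2 CPM under B9 and 26.1 to 45.6 CPM elsewhere, and LOC116203506 had 206 to 287 CPM under B9 and 52.6 to 174 CPM elsewhere. The first genes left out, LOC116212374 with 0.2411 and LOC116214966 with 0.2369, looked much the same. They had 97.8 to 105 CPM against at most 82.6, and 7.68 to 9.67 CPM against at most 6.37. The limit of 150 therefore cuts a continuous series of genes.

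Of the 150 members, 147 were protein-coding and 3 were lncRNA genes (2%), against 95.2% and 4.46% of the tested genes. They lay on 8 chromosomes of the RefSeq gene table. The length of a member had a median of 2910.5 bp, compared with 3104 bp over the tested genes, with quartiles of 1930 and 3976 bp against 2059 and 4552 bp. Of the members, 7 overlap another listed gene. Only LOC116207580 and LOC116207579 are direct neighbours, and they do not overlap. LOC116199040 and LOC116199039, named after their values were seen, have 1 listed gene between them.

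The doses of B9 were compared with each other next. The rule did not set which dose is higher, but it used the lowest of the 4 B9 libraries, so a gene with a wide gap between the doses was less likely to become a member. A low rate of calls among the members is therefore partly chosen, and nothing is read from it. No member passed both thresholds (a log2 fold change of more than 1 in size, and p below 0.05 after adjustment, in edgeR's quasi-likelihood test) between 8 and 6 mg/L. Over all tested genes, 0% were called higher and 0.00513% lower, so the comparison called 1 gene in all. At an unadjusted p under 0.05 and the same fold, 1 member (0.667%) passed, against 3.26% of all genes, and the smallest adjusted p of a member was 0.883. DESeq2 also called 0 members, against 0.49% of the genes it tested, and had 1 at an unadjusted p. The members leaned to lower values at the higher dose. Their median log2 fold change was -0.10, with quartiles of -0.23 and 0.03, against a median of 0.01 over all genes, and 104 of 150 were lower. In 56 members (37.3%) both plants at 8 mg/L were below both at 6 mg/L, compared with 20.8% of all tested genes. The reverse held in 11 members (7.33%), compared with 21.5%. For these counts and for those of the same kind given for paclobutrazol and mannitol, CPM were computed with TMM-scaled totals. The median standard error of a member's log2 fold change was 0.32, so differences of this size in a single gene were not detectable with 2 plants per dose.

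The members with the largest fitted changes between the doses were scarce. LOC116195522 had 7.12 and 5.30 CPM at 6 mg/L and 1.37 and 1.38 CPM at 8 mg/L, or -2.15 as log2 fold change (standard error 1.14). LOC116201352 had 17.9 and 6.80 CPM at 6 mg/L and 4.30 and 6.27 CPM at 8 mg/L, or -1.22 on the log2 scale (standard error 0.52). Its size depended on the plants of 6 mg/L, with -0.27 without replicate 1 and -1.77 without replicate 2. In each of these genes the doses did not overlap. Upward, LOC116194939 had 9.08 and 11.0 CPM at 6 mg/L and 11.7 and 17.0 CPM at 8 mg/L. LOC116201632 went from 1.37 and 1.50 CPM to 2.11 and 1.81 CPM. None of these 4 genes passed the test.

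Between the 2 plants of a condition, the log2 range of a member had a median of 0.19 at 6 mg/L B9 and 0.16 at 8 mg/L. It was 0.17 in CK, 0.25 and 0.19 at 2.5 and 15 g/L mannitol, and 0.64 and 0.28 at 6 and 8 mg/L paclobutrazol. Over the 4 B9 libraries, which hold both doses, the range had a median of 0.37, against 0.43 over all tested genes. Over the 4 libraries of paclobutrazol it was 0.90 (0.88 over all genes), and over those of mannitol 0.56 (0.54). The rule favours genes with a high minimum under B9, so the narrow range there is partly chosen. Within B9, replicate 2 of 6 mg/L was the highest library in 69 members (46%, against 36.9% of all genes) and replicate 1 of 8 mg/L the lowest in 72 (48%, against 23.1%).

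Among the 10 libraries without B9, the members were not evenly ordered. The rule used the highest value of these libraries, so which condition or library came highest is partly chosen. Levels here are CPM from library totals. By these, the median change of all tested genes from CK was -0.19 to -0.02 over the treated libraries, which bears on the shares of all genes. By condition means, 15 g/L mannitol came next to B9 in 45 members (30%), while it was the highest of these 5 conditions in 11.4% of all tested genes. CK came next in 12 members (8%), against 25.7%. The other conditions were near their share of all genes, with 8 mg/L paclobutrazol next in 42 members (28%, against 27.3%), 2.5 g/L mannitol in 33 (22%, against 21.5%) and 6 mg/L paclobutrazol in 18 (12%, against 14.1%). Examples, named after their values were seen, are LOC116187411, whose level was 2.73 CPM in both plants of 15 g/L mannitol against 0.955 and 0.428 CPM in CK, and LOC116194214, with 24.8 and 32.8 CPM at 6 mg/L paclobutrazol against 13.6 and 16.6 CPM in CK.

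By single libraries, the 2 plants of 6 mg/L paclobutrazol took opposite ends. Replicate 2 was the highest of the 10 in 46 members (30.7%, against 14.4% of all genes). Replicate 1 was the lowest in 64 members (42.7%, against 14.4%). The median change of the members from the CK mean was -0.29 in replicate 1 and 0.27 in replicate 2, on the log2(CPM + 1) scale, so these plants of 1 condition fell on either side of CK. In replicate 1, the change differed with gene length among the members. The median was -0.68 in the 40 members under 2 kb, -0.14 in the 74 of 2 to 4 kb and -0.10 in the 36 longer ones, and Spearman's rho with length was 0.30 across the 150 members, as a description over genes of 1 library. In replicate 2 the 3 medians were 0.37, 0.24 and 0.33. Over all tested genes they were -0.13, -0.11 and -0.03 in replicate 1, and 0.14, -0.11 and -0.61 in replicate 2. A relation to length over all tested genes was not confined to these 2 plants. Its rho was 0.08 and -0.36 in them, and -0.33 and -0.35 at 8 mg/L paclobutrazol. It was -0.29 to -0.14 in the B9 libraries and -0.15 to 0.13 in those of mannitol. The part of this length pattern in the members' levels was not tested.

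**Figure D3:**
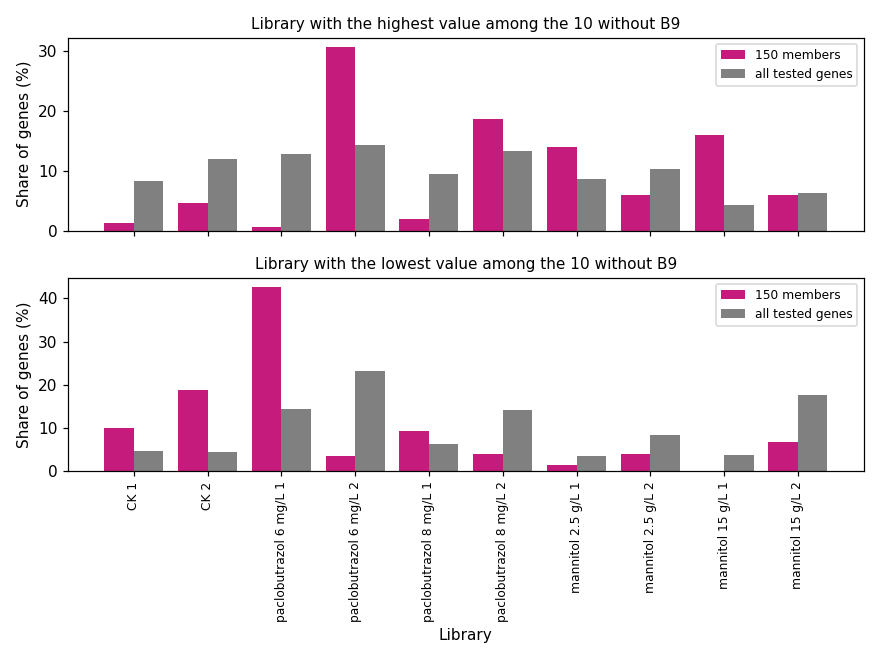
Share of genes (y axis, percent, from 0) for which each of the 10 libraries without B9 (x axis) is the highest (top panel) or the lowest (bottom panel), with pink bars for the 150 members and grey bars for all 19478 tested genes. Replicate 2 of 6 mg/L paclobutrazol is the highest in 30.7% of members and replicate 1 the lowest in 42.7%.

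Whether paclobutrazol moved the members was asked against CK, with both doses pooled. Here the rule sets only a ceiling on the values. Of the members, 5 (3.33%) were upregulated, close to the 2.91% of all tested genes, and 0 were downregulated, where 2.66% of all genes were. At an unadjusted p under 0.05 and a log2 fold change over 1 in size, 19 members were higher and 2 lower, or 14% against 15.5% of all genes. DESeq2 called 18 members, 17 higher and 1 lower, which is 12% against 12.5% of the genes it tested. At an unadjusted p and by DESeq2, the members thus passed about as often as other genes. Those that passed were mostly higher, but the split by direction over all genes is given only for edgeR's adjusted calls. The median log2 fold change of the members was 0.22 against 0.02 over all genes, and 115 of 150 (76.7%) had a value above 0. Without the 2 plants of 6 mg/L the median was 0.32, and 77.3% were above 0. With library totals in place of TMM, 55.3% were, against 41.1% of all genes. All 4 paclobutrazol plants were above both CK plants in 32 members (21.3%, against 15.6% of all genes) and below both in 3 (2%, against 13.1%). With library totals these counts were 19, against 10.7% of all genes, and 9, against 19.8%. Without replicate 1 of 6 mg/L paclobutrazol the first count was 74, against 30.3% of all genes. Fewer plants make such a count easier to reach, and no other plant was left out alone for it.

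LOC116207580 had the smallest adjusted p. It had 21.2 and 17.8 CPM in CK, 41.0 and 46.2 CPM at 6 mg/L paclobutrazol, and 34.7 and 40.0 CPM at 8 mg/L. Every treated plant exceeded both CK plants, and the log2 fold change was 1.23 (standard error 0.17, edgeR adjusted p = 0.0123). The B9 plants were higher still, with 64.2 to 87.3 CPM. Its neighbour LOC116207579 had 58.2 and 52.0 CPM in CK and 54.5 to 79.7 CPM under paclobutrazol, where the groups overlapped.

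LOC116209492 had 1.83 and 2.70 CPM in CK, 6.18 and 13.2 CPM at 6 mg/L paclobutrazol and 13.8 and 20.1 CPM at 8 mg/L, a log2 fold change of 2.69 (standard error 0.56, edgeR adjusted p = 0.0267). LOC116196150 had 0.159 and 0.0856 CPM in CK, which is 4 and 2 counts. It had 0.756 and 9.63 CPM at 6 mg/L paclobutrazol and 3.40 and 7.66 CPM at 8 mg/L, with a fitted log2 fold change of 5.57 (standard error 1.16, edgeR adjusted p = 0.0267) that rests on few CK counts. In both genes the treated plants lay wholly above CK. Without the 2 plants of 6 mg/L their log2 fold changes were 3.06 and 5.57 (edgeR adjusted p = 0.00241 and 0.000524), and that of LOC116207580 was 1.09 (edgeR adjusted p = 0.00119). The other upregulated members, LOC116212759 and LOC116187945, are named because the set is small. Their log2 fold changes were 1.29 and 1.80, with edgeR adjusted p of 0.0476 and 0.0497, at the limit.

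These calls depended on the 2 CK plants. Without CK replicate 1, 1 member was called (0.385% of all genes were), and without CK replicate 2, 0 were (0.01% of all genes), at edgeR adjusted p of 0.0501 and 0.150 for LOC116207580. They depended on the paclobutrazol plants as well. Without replicate 2 of 8 mg/L, 1 member was called, against 0.55% of all genes. Without the 2 plants of 6 mg/L, 17 were (11.3%, against 19.3%), and without replicate 1 of 6 mg/L alone, 28 were (18.7%, against 22.2%).

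The lowest members under paclobutrazol did not pass the test. LOC116210572, described by its levels among the abundant members, had a log2 fold change of -1.51 (edgeR adjusted p = 0.143). Without replicate 2 of 6 mg/L paclobutrazol it was -2.74, and without replicate 1 of that dose it was -1.08. Without both plants of 6 mg/L it was -1.08 as well and did not pass (edgeR adjusted p = 0.0755). LOC116201976 had 12.5 and 21.7 CPM in CK, 6.13 and 19.6 CPM at 6 mg/L and 2.12 and 3.23 CPM at 8 mg/L, a log2 fold change of -1.35 (edgeR adjusted p = 0.0878). Without the 2 plants of 6 mg/L it was -2.53 and passed (edgeR adjusted p = 0.00228).

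Mannitol was compared with the same 2 CK plants, so its values and those of paclobutrazol share their reference. Only 1 member (0.667%) was upregulated, where 0.0359% of all genes (7 of 19478) were, and 0 were downregulated, where 0.0308% of all genes were. At an unadjusted p under 0.05 and the same fold, 19 members were higher and 0 lower, or 12.7% against 6.04% of all genes. DESeq2 called 11 members, all higher, which is 7.33% against 2.85% of the genes it tested. The median log2 fold change of the members was 0.31, against 0.02 over all genes, and 124 of 150 (82.7%) had a value above 0, or 64% with library totals, against 36.1% of all genes. In 63 members (42%) all 4 mannitol plants were above both CK plants, compared with 15.5% of all genes. In 1 member (0.667%) they were all below, compared with 11.4%. With library totals 45 members were wholly above CK, against 8.16% of all genes, and 10 wholly below, against 20.8%.

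**Figure D4:**
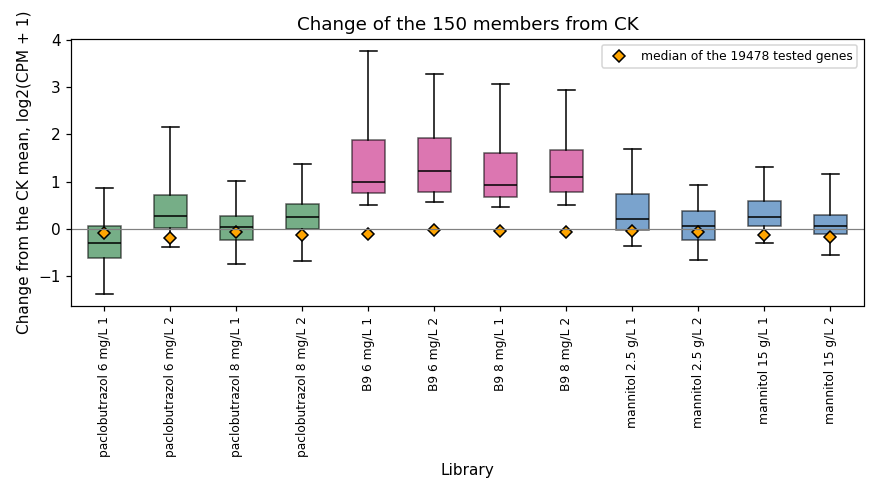
Change of the 150 members from the mean of the 2 CK plants (y axis, log2(CPM + 1)) in the 12 treated libraries (x axis), with boxes for the quartiles, a line for the median, whiskers from the 5th to the 95th percentile and diamonds for the median of all 19478 tested genes. Outside B9 the members' median is above the diamond in every library except replicate 1 of 6 mg/L paclobutrazol, where it is -0.29.

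LOC116192325 was the member upregulated under mannitol. CK had 34.3 and 29.6 CPM, 2.5 g/L mannitol 96.5 and 60.5 CPM, and 15 g/L mannitol 94.9 and 97.0 CPM. All 4 treated plants exceeded both CK plants, and the log2 fold change was 1.58 (standard error 0.22, edgeR adjusted p = 0.0442). The call was lost when any 1 of these 6 plants was left out, with an adjusted p between 0.0507 and 0.302, while the log2 fold change stayed between 1.41 and 1.71. Under paclobutrazol the same gene had 63.3, 71.0, 43.6 and 33.2 CPM, and its log2 fold change of 0.84 was under the fold threshold. Under B9 it had 178 to 227 CPM.

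LOC116207580 came next to this threshold, with 43.0, 41.6, 41.9 and 31.4 CPM under mannitol and a log2 fold change of 1.16 (edgeR adjusted p = 0.0535). For LOC116196150 mannitol gave 5.34 to 8.08 CPM in its 4 plants against 0.159 and 0.0856 CPM in CK (edgeR adjusted p = 0.0745). Downward, LOC116194337 had 12.6 and 38.1 CPM in CK and 11.0, 1.57, 17.1 and 8.03 CPM under mannitol, a log2 fold change of -1.38 (edgeR adjusted p = 0.609). LOC116210572 was at -1.35 (edgeR adjusted p = 0.413), although its 4 mannitol plants lay below both CK plants.

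**Figure D5:**
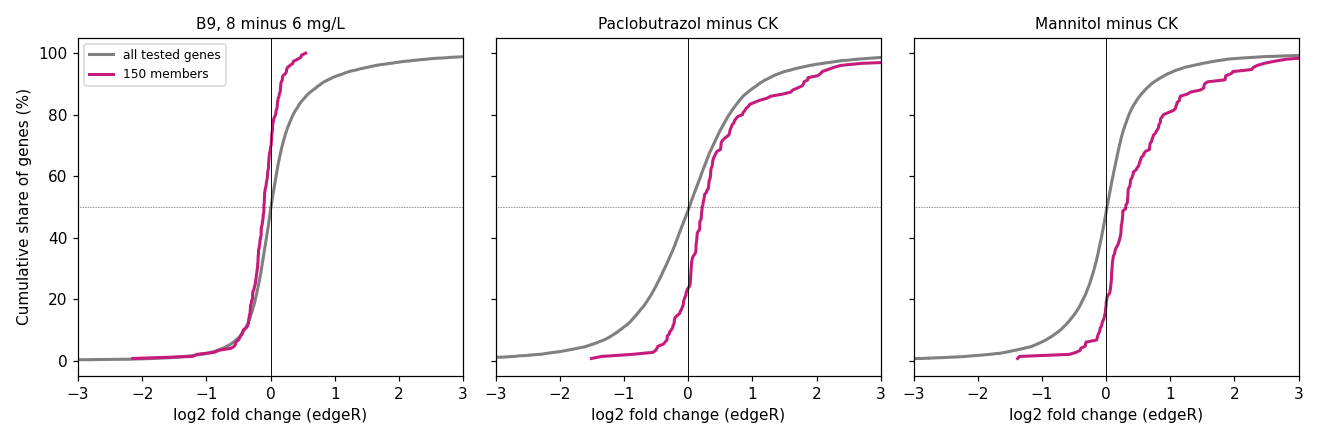
Cumulative share of genes (y axis, percent) by fitted log2 fold change (x axis, drawn from -3 to 3) for the 3 tested comparisons, with the 150 members in pink and all 19478 tested genes in grey. The members' medians (dotted line at 50%) are -0.10 between the B9 doses, 0.22 for paclobutrazol and 0.31 for mannitol, and the curve for all genes crosses 50% near 0 in each panel.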

How the data were processed

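The deposited values are raw counts per gene, not normalized. The authors aligned quality-filtered reads with hisat2 to a published P. granatum genome, kept uniquely mapped reads and assigned these to genes with featureCounts. Versions, the name of the genome build and the use of strand are not given in the sources used here, so counts of overlapping genes are uncertain, and near-identical gene copies lose shared reads. All columns were used. Conditions and replicate numbers came from the sample labels.

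CPM were computed from library totals with a pseudocount of 1 before log2. The members and the comparisons were chosen with earlier results of these data known. Genes were tested with edgeR 4.0.16 in R 4.3.3 (TMM, filterByExpr with a minimum count of 10, quasi-likelihood test, 7 condition means, 14 libraries, 7 residual degrees of freedom, biological coefficient of variation 32.2%), with Benjamini-Hochberg adjustment over 19478 genes. The paper's thresholds were kept. The 3 comparisons were 8 against 6 mg/L B9, paclobutrazol against CK and mannitol against CK. The script was tested on simulated data. A gene with at most 3 counts in each CK library was taken at that floor.

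The rule for naming genes took the 8 members with the highest score, the 5 most abundant under B9, in each comparison the 3 calls in each direction with the smallest adjusted p or, with none, the 2 largest changes, the members and non-members at the limit, and neighbouring members. Any other is said to be named after its values were seen. Biotype, length and order of genes came from the RefSeq table of the assembly ASM765513v2, which matched all 150 members. Its coordinates served only to order the genes and to find neighbours and overlaps. No sequences or product names were at hand, so the planned gene lists, leaf markers and promoter motifs are not analysed here.

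Alternatives were DESeq2 1.42.0, its size factors or library size alone, no filter, a mean count of at least 50, the adjusted p alone, a replicate block, other pseudocounts, only the libraries compared, and leaving out libraries.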

Additional observations from a re-analysis of the deposited data

Results flagged for a closer look

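LOC116201352 differed between the 2 chemicals other than B9. Its change from CK under paclobutrazol minus that under mannitol was -2.65 on the log2 scale, with an adjusted p of 0.0059 in edgeR's quasi-likelihood test over all 19478 genes. The 4 paclobutrazol plants had 0.489, 0.301, 0.246 and 0.190 CPM, which overlaps the 0.597 and 0.214 CPM of CK. The 4 mannitol plants had 1.67, 1.44, 2.28 and 2.44 CPM, all above CK, and the B9 plants had 4.30 to 17.9 CPM. With 1 count worth 0.0352 to 0.0633 CPM, the levels under paclobutrazol and in CK are few counts. The size of the fitted difference therefore rests on low counts. In this difference 2287 of the 19478 tested genes and 2 members passed both thresholds, and 27 named genes were examined for it. Without the 2 libraries of 6 mg/L paclobutrazol, a setting chosen after seeing the data, the difference was -3.08 (edgeR adjusted p = 0.00338).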

How the results depend on the processing

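The number of members called in either direction under paclobutrazol, 5, changed with most settings. It was 3 with library size alone, 18 with DESeq2, 8 with the adjusted p alone, 17 without the 2 libraries of 6 mg/L paclobutrazol and 0 with only the libraries compared in the fit, and leaving out 1 library at a time, where the lone plant of a condition is assumed to vary like the others, gave 0 to 28. For mannitol, 1 member was called in the fit as reported, 11 with DESeq2, 2 at a mean count of at least 50, 6 without the 6 mg/L paclobutrazol libraries, 6 with only the libraries compared, and 0 to 0 with 1 library left out. Between the B9 doses the count was 0 under every setting tried. The causes of these shifts were not tested. A replicate block gave 0 members for the B9 doses, 3 for paclobutrazol and 1 for mannitol. The replicate numbers were not taken as a pairing in the fit as reported. The deviations of same-numbered libraries correlated at -0.29 to 0.39 over 21 pairs of conditions and above 0.1 in 6. Between the doses of 1 chemical the correlation was 0.39 for B9, 0.35 for paclobutrazol and 0.25 for mannitol. Whether the numbers mark something shared within a chemical was not tested.

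The number of genes with a score above 0, 783, was 1850 without replicate 1 of both B9 doses and 1130 without replicate 2 of both. Each of these settings drops a plant of each B9 dose, and fewer libraries make a score above 0 easier to reach. The number was 1213 without the 6 mg/L paclobutrazol libraries, a setting chosen after seeing the data. Of the 150 members, 67 stayed among the first 150 without replicate 1 of both B9 doses, and 102 without replicate 2 of both. Without the 6 mg/L paclobutrazol libraries 75 did. With TMM-scaled totals, 550 genes had a score above 0, among them all 150 members, of which 126 stayed among the first 150. The count of members wholly above CK under paclobutrazol, 32, was 19 with library size alone, 74 without replicate 1 of 6 mg/L and 79 without both its libraries, against 10.7%, 30.3% and 36.8% of all genes. These 3 settings were also added after seeing the data. Of the alternatives for single named genes, 149 kept direction and side of the threshold, 5 moved past it, 17 fell short of it and 0 changed direction. Many of the 149 belong to genes that were not called in the first place. All 17 belong to the named genes called against CK, which are LOC116207580, LOC116209492, LOC116196150 and LOC116192325. With 2 plants per condition, the standard error of a member's log2 fold change had a median of 0.29 against CK, which limits what single genes can show.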
